A study of Mus musculus with 18 samples.

Results

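Temporal identity transcription factors record when a neuron of the spinal cord was born. The 10 members of this set were taken from the count tables by gene: the early factors Onecut1, Onecut2 and Onecut3, the intermediate factors Pou2f2, Zfhx2, Zfhx3 and Zfhx4, and the late factors Nfia, Nfib and Nfix. All 10 were found among the 27179 genes counted, in each of 18 RNA-seq libraries, and all 10 passed the filter on low counts. In the neurons that had been given Hoxc9, the levels of Zfhx2, Zfhx4, Nfia, Nfib and Nfix rose above control. The calls of Zfhx4 and Nfix were lost when any 1 of the Hoxc9 libraries was left out. In the neurons given Hoxc10, Onecut1, Zfhx4, Nfia and Nfib rose. None of the 10 passed the test in neurons given Hoxc6 or Hoxc8, where only 0.587% and 2.12% of all genes passed. With Hoxc8, 2 of the 10, Nfia and Nfib, lay above every control library without passing. The share of all genes without overlap was not computed for Hoxc8.

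In the developing neural tube, progenitors of every dorsoventral domain give rise to neurons in the same temporal order. Neurons born first carry Onecut factors, which bind DNA through a cut domain and a homeodomain. Those born next carry Pou2f2, a POU-homeodomain protein, and the large zinc finger homeodomain proteins of the Zfhx family, and those born last carry nuclear factor I proteins. Nuclear factor I proteins are also known from progenitors, where Nfia takes part in the switch from making neurons to making glia. Hox proteins act along the other axis and give neurons their brachial, thoracic or lumbar identity.

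Mouse embryonic stem cells were differentiated as embryoid bodies with 1 µM retinoic acid and 0.5 µM of the Hedgehog agonist SAG, which direct cells to ventral spinal cord fates, and polyadenylated RNA was sequenced from 3 libraries of each of 6 groups. Day 2 progenitors came from the line iCre and received no doxycycline (Dox). Control neurons were collected on day 4 from the iHoxc6 line without Dox. For the iHoxc6, iHoxc8, iHoxc9 and iHoxc10 neurons, 48 h of Dox at 3 µg/ml up to day 4 switched on 1 Flag-tagged Hox transgene in each line. Each line is an engineered stem cell line, and the only control is the uninduced iHoxc6 line, so line and Hox gene cannot be told apart in iHoxc8, iHoxc9 and iHoxc10 neurons. Every iHox group received Dox and control did not, so Dox and Hox gene cannot be told apart in any iHox group against control. The libraries were sequenced in 4 runs: control shared its run with iHoxc6, iHoxc9 shared a run with iHoxc10, and iHoxc8 and day 2 progenitors had a run each. Only iHoxc6 against control and iHoxc9 against iHoxc10 therefore lie within a run, and in every other comparison the run and the group cannot be told apart.

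Total counts ranged from 24498630 to 33168533 per library. Levels are CPM, the counts of a gene relative to all counts of its library, scaled by edgeR's TMM factors, and 3 counts correspond to 0.0904 to 0.122 CPM before that scaling, a floor that covers counting error only. Each transgene was seen in its own line: Hoxc6 at 514 CPM, Hoxc8 at 389, Hoxc9 at 224 and Hoxc10 at 430.1, and the same genes averaged at most 3.18 CPM in control. Hoxc6 was also raised in iHoxc10 neurons, at a mean of 47.3 CPM, and the paper mentions some Hoxc6 expression after Hoxc10 induction. The part of Hoxc6 in the members' changes there was not tested. The summed level of 8 neuron markers was 340.0 to 698 CPM in day 2 progenitors and 6888 to 10140 CPM on day 4. The 8 markers of neural progenitors summed to 838 to 1647 CPM over all libraries. In control most of that sum was Vim and Nes, at 656 and 237 CPM, while Pax6 averaged 100.6 CPM on day 2 and 8.67 CPM in control, and Mki67, a marker of dividing cells, 309 and 92.5 CPM. The 4 astrocyte markers summed to 0.665 to 6.21 CPM, with Gfap at 3 counts or fewer in every day 4 library. Lists of pluripotent, microglial and blood, and endothelial and mesenchymal markers summed to at most 7.09 CPM in any library. The second iHoxc8 library stood apart: genes with over 8 kb of exon were lower there than in the other two iHoxc8 libraries (median log2 difference -0.35) and genes with under 2 kb higher (0.27). Every member has over 4 kb of exon, and 9 of the 10 were lowest in that library among the iHoxc8 libraries.

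On mm10 the members that rose in iHoxc9 or iHoxc10 neurons are spread over 5 chromosomes. Onecut1 lies at chr9:74861921-74889648, Zfhx2 at chr14:55060268-55092381 and Zfhx4 at chr3:5218218-5415861. Nfia and Nfib share a chromosome, at chr4:97578066-98118876 and chr4:82290173-82506751, and Nfix lies at chr8:84704712-84801238. To show the DNA at the members' start sites, upstream stretches of 3 members that rose in iHoxc9 or iHoxc10 neurons are printed from the RefSeq promoter table (GRCm38, the mm10 assembly). Onecut1 stands for the early class and Nfia for the late class, each with the 250 bases before its annotated start. Zfhx2, the only member with TTTAT among the 6 with a window, is shown by the 28 bases around its matches. Capitals mark TAAT, the core letters bound by many homeodomains, or TTTAT, letters found in sites of posterior Hox proteins, on either strand; in the Zfhx2 line they mark TTTAT alone, where 2 matches overlap, and the Onecut1 line holds neither motif. The Onecut1 stretch lies at chr9:74861671-74861920 (+), the Nfia stretch at chr4:97581693-97581942 (+) and the Zfhx2 stretch at chr14:55092171-55092198 (-). The Zfhx2 stretch is upstream of the start used in the promoter table but within an exon of the GENCODE annotation. Both the Zfhx2 and the Nfia stretch lie inside the RefSeq span of their gene.
Onecut1: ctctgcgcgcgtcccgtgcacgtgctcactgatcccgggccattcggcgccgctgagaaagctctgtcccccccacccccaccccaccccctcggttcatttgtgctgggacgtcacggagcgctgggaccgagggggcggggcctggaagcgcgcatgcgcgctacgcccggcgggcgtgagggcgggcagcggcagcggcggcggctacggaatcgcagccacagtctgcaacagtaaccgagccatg
Nfia: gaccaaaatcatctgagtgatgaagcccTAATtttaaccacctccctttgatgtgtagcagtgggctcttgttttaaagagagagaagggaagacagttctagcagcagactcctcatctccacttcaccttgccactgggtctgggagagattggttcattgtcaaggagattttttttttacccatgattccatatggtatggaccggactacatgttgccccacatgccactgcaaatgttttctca
Zfhx2: gccgtgaaTTTATTTATttttccatctc
The promoter table held 9 different windows for 6 of the members. Of all 32851 windows of 250 bases, 37.3% held TTTAT or its complement, and of these 9 windows only that of Zfhx2 did. TAAT or its complement stood in 54.9% of all windows, and here in the windows of Nfia and Zfhx2 and in most of those of Nfix. The longer TGATTTAT stood in 0.837% of all windows and in none of these. These matches are descriptions of letters in short windows, and no binding data were analysed here.

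**Figure D1:**
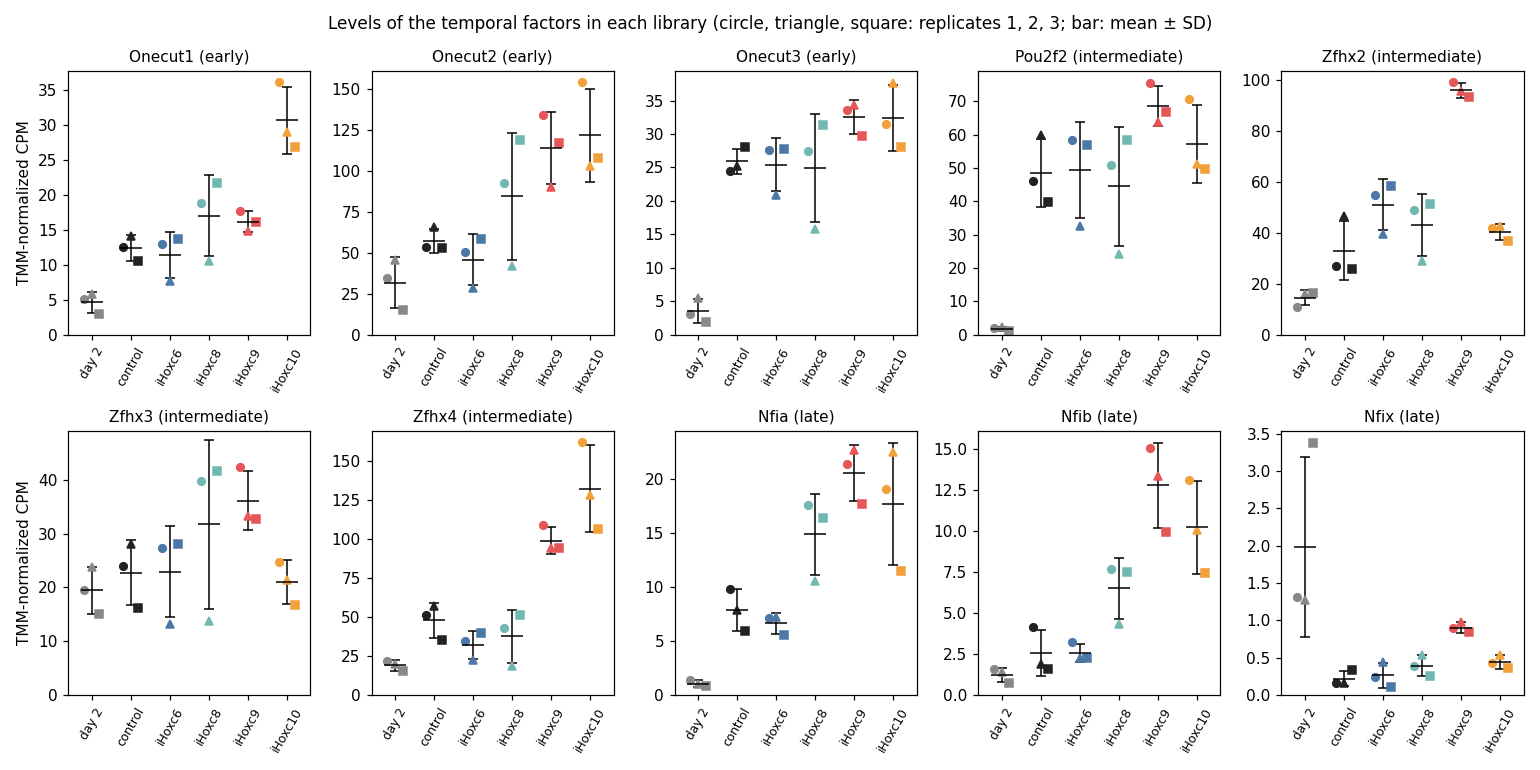
TMM-normalized CPM (y axis, linear, from 0) of each factor in the 3 libraries of each group (x axis). Points are libraries, with circle, triangle and square for replicates 1, 2 and 3, and bars are the mean ± SD. Zfhx2 in iHoxc9 neurons and Zfhx4 in iHoxc9 and iHoxc10 neurons lie above every control library, and the triangle of iHoxc8 is the lowest of its group in every panel but that of Nfix.

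The passage from day 2 progenitors to control neurons shows the level of each class in neurons whose Hox transgene was not induced, although line, run and day differ together. The test was the quasi-likelihood test of edgeR over 20944 genes, with p-values adjusted by the Benjamini-Hochberg method, and a member passed at an adjusted p under 0.01. Of the 10 members, 6 were higher in control, against 21.2% of all genes tested, and 1 was lower, against 21.2%. With an absolute log2 fold change above 2 as well, 4 members passed, Onecut3, Pou2f2, Nfia and Nfix, against 12.6% of all genes in either direction. The median log2 fold change was 1.27 over the members and 0 over all genes. All 8 neuron markers and all 7 motor neuron markers were also higher in control, with motor neuron sums of 19.1 to 45.0 CPM in day 2 progenitors and 544 to 571 CPM in control. The part of cell composition in the members' changes was not tested, and in these bulk samples fewer cells of a type and less RNA per cell cannot be told apart.

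Of the early factors, Onecut3 changed most on this step. Its levels were 3.00, 5.46 and 1.94 CPM in day 2 progenitors and 24.5, 25.3 and 28.0 CPM in control neurons. The groups lay far apart, and by edgeR the difference passed (log2 fold change 2.91, SE 0.27, adjusted p = 6.69e-09). Onecut1, a factor also known as hepatocyte nuclear factor 6, was counted at 5.12, 5.76 and 2.94 CPM and 12.6, 14.1 and 10.5 CPM, which did not overlap (log2 fold change 1.43, SE 0.26, adjusted p = 7.77e-05, edgeR). Onecut2 stood at 34.3, 45.7 and 14.8 CPM in day 2 progenitors and at 53.3, 65.9 and 52.7 CPM in control. The third day 2 library was the lowest of these 6 for Onecut2, and the difference did not pass by edgeR (log2 fold change 0.86, SE 0.34, adjusted p = 0.0375). Without the second day 2 library it did (log2 fold change 1.19, adjusted p = 0.00942, edgeR).

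Of the intermediate factors, Pou2f2 changed most on this step. It was counted at 1.99, 2.13 and 1.00 CPM in day 2 progenitors and at 46.0, 59.9 and 39.9 CPM in control, the largest rise of any member (log2 fold change 4.84, SE 0.33, adjusted p = 3.65e-11, edgeR). Pou2f2 lies at chr7:25087350-25180797 on the minus strand, and the noncoding gene D930028M14Rik lies within its span on the plus strand. That gene went from 34.7 ± 23.4 CPM (SD, n = 3) on day 2 to 508 ± 191 CPM in control. The strand setting of the counting is not given in the sources used here, so reads of the pair may not be fully separated and the Pou2f2 values are uncertain to that extent. From control to the iHox neurons, the overlapping gene went down in mean level, to between 232 and 307 CPM.

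Zfhx2 was counted at 10.9, 15.9 and 16.2 CPM on day 2 and at 26.9, 46.5 and 25.5 CPM in control, with the second control library the highest (log2 fold change 1.20, SE 0.23, adjusted p = 0.000105, edgeR). For Zfhx4 the values were 21.6, 19.8 and 15.1 CPM and 51.5, 57.1 and 35.4 CPM, again without overlap (log2 fold change 1.35, SE 0.28, adjusted p = 0.000242, edgeR). Zfhx3, the tumour suppressor also called Atbf1, was already present on day 2. Its levels of 19.4, 23.8 and 15.1 CPM on day 2 and 24.1, 28.1 and 16.1 CPM in control overlapped, with a log2 fold change of 0.23 and a 95% interval of -0.43 to 0.89.

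The late factors split. Nfia was counted at 1.35, 0.998 and 0.781 CPM on day 2 and at 9.77, 7.82 and 5.91 CPM in control (log2 fold change 2.91, SE 0.28, adjusted p = 1.14e-08, edgeR). Nfib was low in both, at 1.55, 1.36 and 0.718 CPM and 4.14, 1.89 and 1.57 CPM. The lowest Nfib value of control lay close above the highest of day 2, and the difference missed the threshold in edgeR (log2 fold change 1.08, SE 0.36, adjusted p = 0.0136), although it passed with DESeq2's Wald test (adjusted p = 0.00845). Nfix was the only member that fell. It had 1.31, 1.26 and 3.37 CPM on day 2 and 0.161, 0.154 and 0.337 CPM in control, from 39, 38 and 108 counts and 5, 4 and 9 counts (log2 fold change -3.18, SE 0.47, adjusted p = 4.69e-06, edgeR). The third day 2 library was the highest of these.

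Against the same day 2 progenitors, the members changed in number from 6 in iHoxc6 neurons to 9 in iHoxc8 and iHoxc10 neurons. In iHoxc6 neurons 5 members were higher, against 22.7% of all genes, and Nfix was lower, against 23.9%. In iHoxc8 neurons 8 were higher, against 22.3% of all genes, and Nfix was lower, against 22.3%. Here the second iHoxc8 library bore on the count, since Zfhx3 also passed without it (log2 fold change 1.04, adjusted p = 0.00265, edgeR). The iHoxc8 count was 7 without the third iHoxc8 library, 7 with offsets for exon length and 7 when only the groups compared were fitted, with Onecut2 and Zfhx4 the members lost each time. Zfhx4 alone was also lost without the second or the third day 2 library or the first iHoxc8 library (adjusted p from 0.0112 to 0.0167, edgeR). In iHoxc9 neurons 8 were higher, against 23.4% of all genes, and none was lower, against 23.3%. Nfix passed there as lower without the first or the second day 2 library (adjusted p = 0.00563 and 0.00472, edgeR) and with offsets for exon length (log2 fold change -1.54, adjusted p = 0.00191, edgeR). In iHoxc10 neurons 8 were higher, against 24.1% of all genes, and Nfix was lower, against 26.1%. The shares of all genes are lower than those of long, expressed genes. Among genes with a mean of at least 1 CPM and over 8 kb of exon, 36.2% were higher than on day 2 in iHoxc6 neurons. In iHoxc8, iHoxc9 and iHoxc10 neurons it was 39.9%, 45.3% and 43.8% of them. Zfhx3 passed in none of these 4 comparisons, which share the 3 day 2 libraries. Its direction in iHoxc10 neurons turned with offsets for exon length, from a log2 fold change of 0.11 to -0.72 (adjusted p = 0.00474, edgeR).

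Induction of Hoxc6 is the only Hox comparison made within a single line and run, although Dox and the Hox gene differ together in it. None of the 10 members passed, against 0.587% of all genes tested. At an unadjusted p under 0.05 there were 2, against 21.2% of all genes, and DESeq2 called 0 at an adjusted p under 0.01, against 3.84% of the genes it adjusted. The median log2 fold change was -0.01 over the members and 0 over all genes. The values of every member overlapped between the groups, while 24.4% of all genes did not overlap. Zfhx2 came nearest, with 54.9, 39.6 and 58.2 CPM in iHoxc6 neurons (log2 fold change 0.63, SE 0.22, adjusted p = 0.109, edgeR). It passed only without the second control library (log2 fold change 0.96, adjusted p = 0.00579, edgeR), which was the highest of control. Zfhx4, at 34.5, 22.1 and 39.6 CPM, lay lower on average than in control, with a 95% interval of -1.14 to -0.02 for the log2 fold change (adjusted p = 0.215, edgeR). For Nfia the level was 6.63 ± 0.960 CPM (SD, n = 3), with an interval of -0.74 to 0.26, and for Nfib 2.57 ± 0.553 CPM, with an interval of -0.69 to 0.70. For Onecut3 the level was 25.4 ± 3.98 CPM, with an interval of -0.54 to 0.48.

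**Figure D2:**
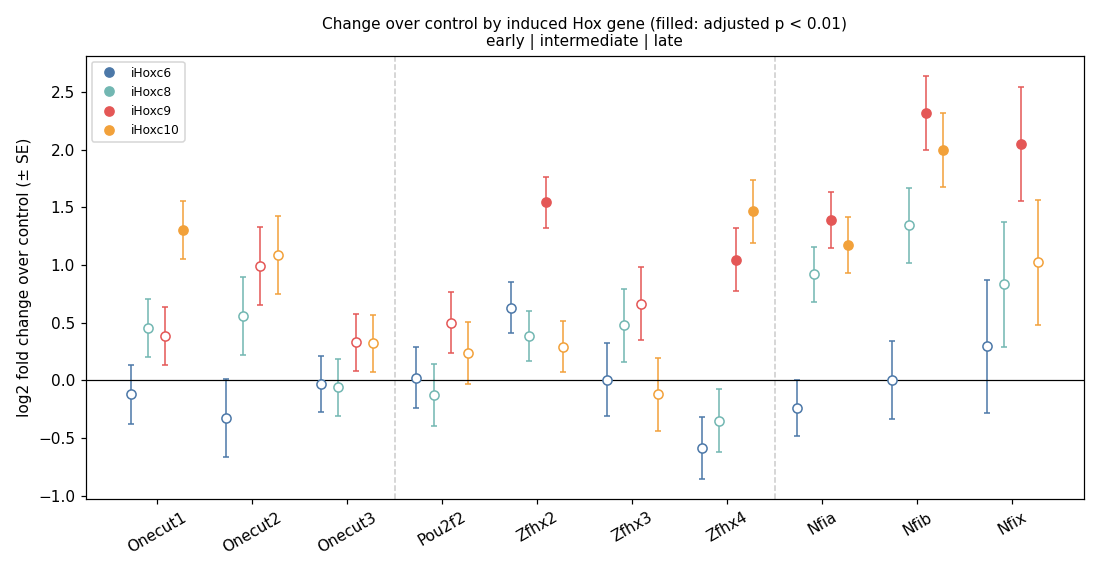
Log2 fold change over control (y axis) of each factor (x axis), by induced Hox gene. Points are edgeR estimates with bars of 1 SE, and filled points passed at an adjusted p under 0.01. Filled points are 0 of 10 for iHoxc6 and iHoxc8, 5 of 10 for iHoxc9 and 4 of 10 for iHoxc10.

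With Hoxc8 no member passed, against 2.12% of all genes tested, 2 passed at an unadjusted p under 0.05, against 23.2%, and DESeq2's Wald test called 2, against 9.25% of the genes it adjusted. Both were late factors. Nfib was counted at 7.66, 4.34 and 7.47 CPM, all above the 3 control values of 4.14, 1.89 and 1.57 CPM. The Nfib difference missed the threshold in edgeR (log2 fold change 1.34, SE 0.32, adjusted p = 0.0139) and passed with DESeq2 (adjusted p = 0.00256). Nfia was counted at 17.6, 10.6 and 16.4 CPM, also above every control library (log2 fold change 0.92, SE 0.24, adjusted p = 0.021, edgeR). It too passed with DESeq2 (adjusted p = 0.00714). Of the 10 members, Nfib and Nfia were the 2 that did not overlap with control. The share of all genes without overlap was not computed for Hoxc8. It was 24.4% with Hoxc6, 38.6% with Hoxc9 and 34.8% with Hoxc10, so 2 of 10 is not read as a result about the members. The second iHoxc8 library was the lowest of the 3 for both Nfib and Nfia. Without that library both passed in edgeR, Nfib with a log2 fold change of 1.56 (adjusted p = 0.00679) and Nfia with 1.11 (adjusted p = 0.00797). Without the first control library, the highest for Nfib, Nfib passed alone (log2 fold change 1.91, adjusted p = 0.00242, edgeR).

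The early and intermediate factors varied widely among the iHoxc8 libraries. Onecut2 was counted at 92.2, 42.0 and 119 CPM, so that the second library lay below every control library and the others above (log2 fold change 0.56, SE 0.34, adjusted p = 0.337, edgeR). Pou2f2 was also lowest in that library, with 50.9, 24.2 and 58.4 CPM, and had a log2 fold change of -0.13 with a 95% interval of -0.68 to 0.42. Zfhx4 was the only member other than Pou2f2 and Onecut3 with a mean below control, at 37.7 ± 17.0 CPM (SD, n = 3, adjusted p = 0.48, edgeR).

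In iHoxc9 neurons 5 members were higher than control and none was lower, against 6.95% of all genes tested that were higher. With an absolute log2 fold change above 2 as well there were 2, Nfib and Nfix, against 1.53% of all genes. The median log2 fold change was 1.02 over the members and 0.0013 over all genes. The values of all 10 members lay above those of control without overlap, against 38.6% of all genes that did not overlap in either direction. All 3 late factors were among the 5. Nfib was counted at 15.0, 13.3 and 9.95 CPM, each above the highest control value of 4.14 CPM (log2 fold change 2.32, SE 0.32, adjusted p = 1.57e-05, edgeR). Nfia was counted at 21.4, 22.6 and 17.6 CPM, each above the highest control value of 9.77 CPM (log2 fold change 1.39, SE 0.24, adjusted p = 0.000201, edgeR). Both calls were kept without any single library of the comparison. Nfix, at 0.900, 0.971 and 0.836 CPM from 23, 33 and 21 counts, was above control but stayed below its day 2 level in every library (log2 fold change 2.05, SE 0.50, adjusted p = 0.00424, edgeR). The Nfix call was lost without the first or the second control library and without any of the iHoxc9 libraries, with adjusted p from 0.0117 to 0.026 in edgeR.

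Among the intermediate factors, Zfhx2 rose most. It was counted at 99.0, 95.4 and 93.2 CPM in iHoxc9 neurons, against 26.9, 46.5 and 25.5 CPM in control (log2 fold change 1.54, SE 0.22, adjusted p = 2.66e-05, edgeR). Zfhx4 was counted at 109, 94.1 and 94.4 CPM, against 51.5, 57.1 and 35.4 CPM in control (log2 fold change 1.05, SE 0.27, adjusted p = 0.00656, edgeR). All 3 values lay above the highest control library. The Zfhx4 call was lost without the first or the third control library and without any of the iHoxc9 libraries, with adjusted p from 0.0149 to 0.0627 in edgeR, and with the filter of at least 10 counts in at least 3 libraries (adjusted p = 0.0108). Pou2f2 was counted at 75.5, 63.9 and 66.9 CPM, also above every control library, but the difference did not pass (log2 fold change 0.50, SE 0.27, adjusted p = 0.189, edgeR). Zfhx3 stood at 42.4, 33.3 and 32.7 CPM, with a log2 fold change of 0.67 and a 95% interval of 0.01 to 1.32 (adjusted p = 0.138, edgeR). With offsets for exon length the log2 fold change of Zfhx3, the longest member, was 0.075 (adjusted p = 0.866, edgeR).

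The early factors did not pass in iHoxc9 neurons. Onecut2 was counted at 134, 90.3 and 117 CPM, above every control library (log2 fold change 0.99, SE 0.34, adjusted p = 0.0356, edgeR), and it passed when only the groups compared were fitted (adjusted p = 0.000792, edgeR). With offsets for exon length its log2 fold change was 0.45 (adjusted p = 0.254, edgeR). Onecut1, at 16.2 ± 1.44 CPM (SD, n = 3), had a 95% interval of -0.14 to 0.90 and Onecut3, at 32.6 ± 2.51 CPM, one of -0.18 to 0.84.

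In iHoxc10 neurons 4 members were higher than control and none was lower, against 6.67% of all genes tested that were higher. None had an absolute log2 fold change above 2 as well, against 0.773% of all genes, with Nfib just under that threshold. DESeq2's Wald test called 1 past both, against 0.964% of the genes it adjusted. The median log2 fold change was 1.05 over the members and 0 over all genes. Of the 10 members, 6 did not overlap with control, against 34.8% of all genes. Onecut1 rose, with 36.1, 29.0 and 26.9 CPM against 12.6, 14.1 and 10.5 CPM in control (log2 fold change 1.31, SE 0.25, adjusted p = 0.000613, edgeR). Onecut2 was counted at 154, 103 and 108 CPM, above every control library, without passing in edgeR (log2 fold change 1.09, SE 0.34, adjusted p = 0.0215). It passed with DESeq2 (adjusted p = 0.00896), and with offsets for exon length its log2 fold change was 0.63 (adjusted p = 0.0958, edgeR). Onecut3, the third early factor, was counted at 31.4, 37.6 and 28.0 CPM, with a 95% interval of -0.19 to 0.83 for the log2 fold change.

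Zfhx4 reached its highest level here, 162, 128 and 107 CPM, well above the control libraries (log2 fold change 1.46, SE 0.27, adjusted p = 0.000443, edgeR). The other intermediate factors did not pass. Zfhx2 was counted at 41.8, 42.5 and 36.8 CPM, within the range of control (log2 fold change 0.29, SE 0.22, adjusted p = 0.379, edgeR), Zfhx3 at 21.0 ± 4.08 CPM and Pou2f2 at 57.3 ± 11.8 CPM (SD, n = 3). Of the late factors, Nfia was counted at 19.1, 22.5 and 11.5 CPM (log2 fold change 1.17, SE 0.24, adjusted p = 0.00102, edgeR). The Nfia call was lost without the third control library (adjusted p = 0.0105) or the second iHoxc10 library (adjusted p = 0.0116, edgeR). Nfib was counted at 13.1, 10.1 and 7.46 CPM, each above the highest control library (log2 fold change 2.00, SE 0.32, adjusted p = 0.000111, edgeR). Nfix, at 0.420, 0.537 and 0.365 CPM from 12, 15 and 9 counts, did not pass (log2 fold change 1.02, SE 0.54, adjusted p = 0.189, edgeR).

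Exon length moved with these comparisons and is given beside them because the members are long, from 4113 bases of exon for Onecut1 to 20976 for Zfhx3. Among all genes with a mean of at least 1 CPM, the median log2 fold change over control of genes with over 8 kb of exon was 0.02 with Hoxc6, 0.27 with Hoxc8, 0.35 with Hoxc9 and 0.31 with Hoxc10. For genes under 2 kb it was -0.11, -0.32, -0.41 and -0.47. Among the genes over 8 kb, 18.6% were higher in iHoxc9 and 18.2% in iHoxc10 neurons at an adjusted p under 0.01 in edgeR. With an offset for exon length in each library, chosen after the data were seen, 3 of the 5 members kept their call in iHoxc9 neurons, Zfhx2, Nfia and Nfib, with log2 fold changes of 1.00, 1.00 and 1.82 in edgeR. The log2 fold change of Zfhx4 was then 0.54 (adjusted p = 0.0287) and that of Nfix 1.79 (adjusted p = 0.0147), short of the threshold. In iHoxc10 neurons all 4 members kept theirs, Onecut1 at 1.31, Zfhx4 at 1.03, Nfia at 0.85 and Nfib at 1.57. Whether the length trend comes from the RNA, the run or the cells was not tested.

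**Figure D3:**
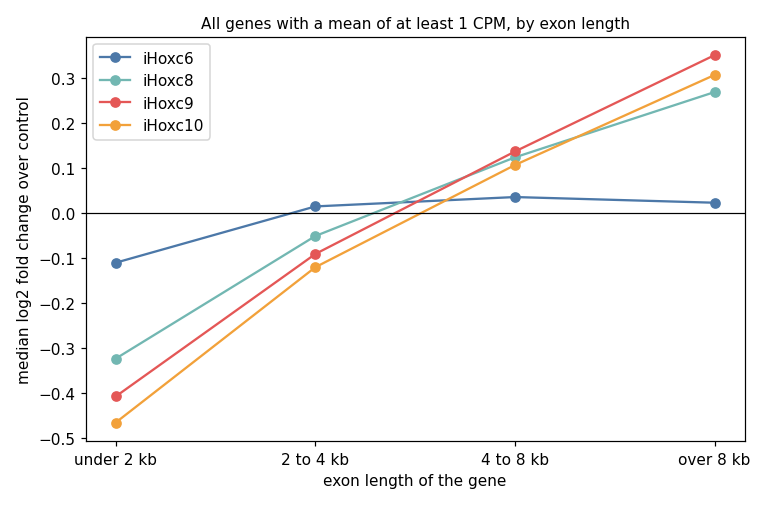
Median log2 fold change over control (y axis) of all genes with a mean of at least 1 CPM, in classes of exon length (x axis), with 1 line for each induced Hox gene. The iHoxc6 line stays between -0.11 and 0.04, and the lines of iHoxc8, iHoxc9 and iHoxc10 climb with length, to 0.27, 0.35 and 0.31 in the genes over 8 kb.

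The direct test of iHoxc9 against iHoxc10 neurons lies within 1 run and involves 2 proteins that both descend from the Abdominal-B class. In this test 1 member passed, against 4.99% of all genes tested. It was Zfhx2, at 99.0, 95.4 and 93.2 CPM with Hoxc9 and 41.8, 42.5 and 36.8 CPM with Hoxc10 (log2 fold change 1.25, SE 0.22, adjusted p = 0.00054, edgeR). The call was kept without any single library and with the offset for exon length, where the log2 fold change was 1.16. Onecut1 was higher in every iHoxc10 library than in every iHoxc9 library, 36.1, 29.0 and 26.9 CPM against 17.7, 14.8 and 16.1 CPM, without passing in edgeR (log2 fold change -0.92, SE 0.25, adjusted p = 0.0195). With DESeq2 it passed (adjusted p = 0.00398). Zfhx3 and Nfix also did not overlap, with higher values in iHoxc9 neurons, which makes 4 of the 10 members without overlap, against 31% of all genes. Their log2 fold changes were 0.78 (adjusted p = 0.157, edgeR) and 1.02 (adjusted p = 0.2, edgeR). The other members overlapped. Their 95% intervals of the log2 fold change ran from -0.79 to 0.59 for Onecut2, -0.50 to 0.52 for Onecut3 and -0.29 to 0.81 for Pou2f2 to -0.97 to 0.14 for Zfhx4, -0.27 to 0.70 for Nfia and -0.29 to 0.94 for Nfib.

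**Figure D4:**
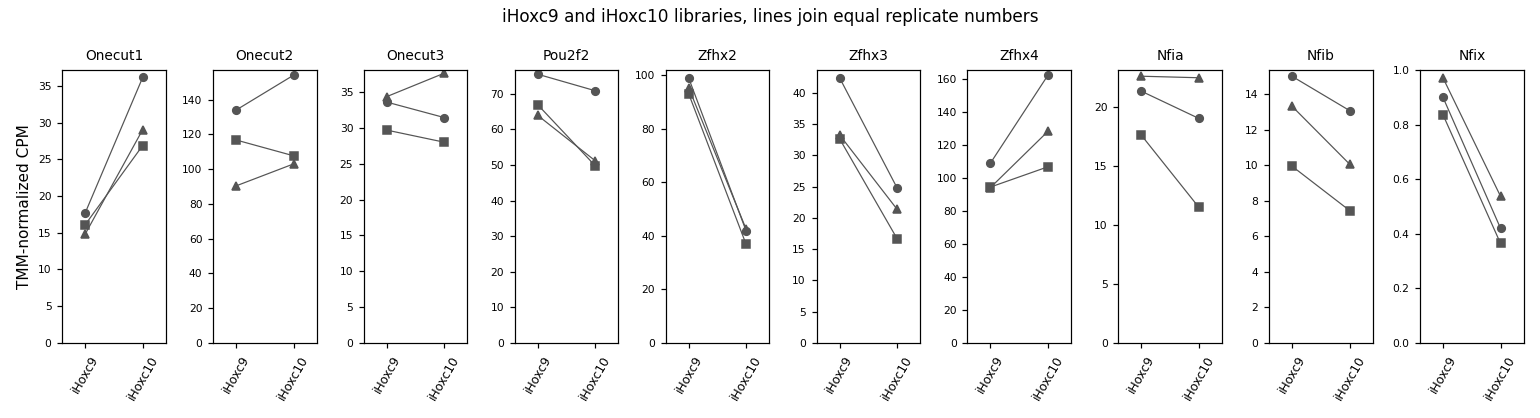
TMM-normalized CPM (y axis, linear, from 0) of each factor in iHoxc9 and iHoxc10 neurons (x axis), with a line joining libraries of equal replicate number. All 3 lines fall for Zfhx2, Zfhx3 and Nfix and rise for Onecut1, without overlap between the groups.

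Libraries of equal replicate number in these 2 groups deviated together, with correlations of 0.579, 0.474 and 0.651 across 13192 genes. A fit of only these groups with the replicate block called 7 members, with 27.6% of all genes called, and without the block 3 members, with 10.5%. The block in the fit of all 18 libraries called 1. In the paired fit Zfhx2, Zfhx3, Nfix, Nfib and Pou2f2 were higher in iHoxc9 neurons and Onecut1 and Zfhx4 higher in iHoxc10 neurons. The log2 fold changes of the paired fit were 1.21 for Zfhx2, 0.75 for Zfhx3, 0.98 for Nfix, 0.30 for Nfib, 0.24 for Pou2f2, -0.96 for Onecut1 and -0.44 for Zfhx4. This fit leaves 2 residual degrees of freedom and draws its estimate of the spread from all genes, so its calls rest on that shared estimate.

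Markers of cell types moved in the same comparisons, and their part in the members' changes was not tested. In iHoxc9 neurons 3 of 7 ventral interneuron markers were higher than control by edgeR, Sox14 and Sim1 among them, with sums of 30.6 to 39.8 CPM against 3.35 to 5.04 CPM in control and 7.86 to 13.2 CPM in iHoxc10. Of 7 motor neuron markers, 4 were lower than control in iHoxc9 and 2 in iHoxc10 neurons, with sums of 298 to 324 CPM and 486 to 547 CPM. In iHoxc9 neurons 1 of 8 neuron markers was higher than control, and of 8 progenitor markers 2 were higher, Sox1 and Sox2, and 2 lower, Hes5 and Olig2. In iHoxc10 neurons 3 of 8 neuron markers were higher and 3 of 8 progenitor markers lower than control. Between the 2 groups, 3 of 8 progenitor markers were higher in iHoxc9 neurons, Sox1, Sox2 and Pax6, with log2 differences of 0.77, 0.69 and 1.95. None of the 4 astrocyte markers passed in any iHox line against control. Of 4 oligodendrocyte lineage markers, Sox10 averaged at most 1.07 CPM in any group, while Mbp made up most of the sum, 126 to 158 CPM in iHoxc10 against 81.2 to 102 CPM in control.

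Levels of different genes were compared per kilobase of exon. In day 2 progenitors the order was led by Onecut2 at 1.95 ± 0.960 CPM per kb (SD, n = 3), and each member's range of libraries overlapped with that of the next in order, down to Nfib at 0.0809 ± 0.0292. In control the order was led by Pou2f2 at 5.90 ± 1.24 and Onecut3 at 5.43 ± 0.391 CPM per kb, which overlapped with each other but not with Onecut2 at 3.53 ± 0.459. The late factors closed the order in control, with Nfia at 0.719 ± 0.177, Nfib at 0.169 ± 0.0938 and Nfix at 0.0295 ± 0.0141 CPM per kb, without overlap between one and the next. In iHoxc6 neurons Pou2f2 at 5.997 ± 1.76 and Onecut3 at 5.32 ± 0.834 CPM per kb again led. In iHoxc8 neurons the ranges of the first 8 members overlapped from one to the next, from Pou2f2 at 5.40 ± 2.18 to Nfia at 1.36 ± 0.346 CPM per kb. In iHoxc9 neurons Pou2f2 led at 8.34 ± 0.729, followed by Onecut2 at 7.00 ± 1.35, Onecut3 at 6.82 ± 0.525 and Zfhx4 at 6.30 ± 0.539 CPM per kb, whose ranges overlapped in turn. Zfhx2 at 5.28 ± 0.163 and Onecut1 at 3.94 ± 0.350 came after without overlap. In iHoxc10 neurons Zfhx4 at 8.41 ± 1.78, Onecut2 at 7.49 ± 1.74, Onecut1 at 7.46 ± 1.18, Pou2f2 at 6.95 ± 1.43 and Onecut3 at 6.78 ± 1.02 CPM per kb overlapped in turn, with a gap before Zfhx2 at 2.22 ± 0.172. The ranks depend on the length used: with the longest transcript in place of all exons, 41 of the 60 ranks over 6 groups were kept.

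**Figure D5:**
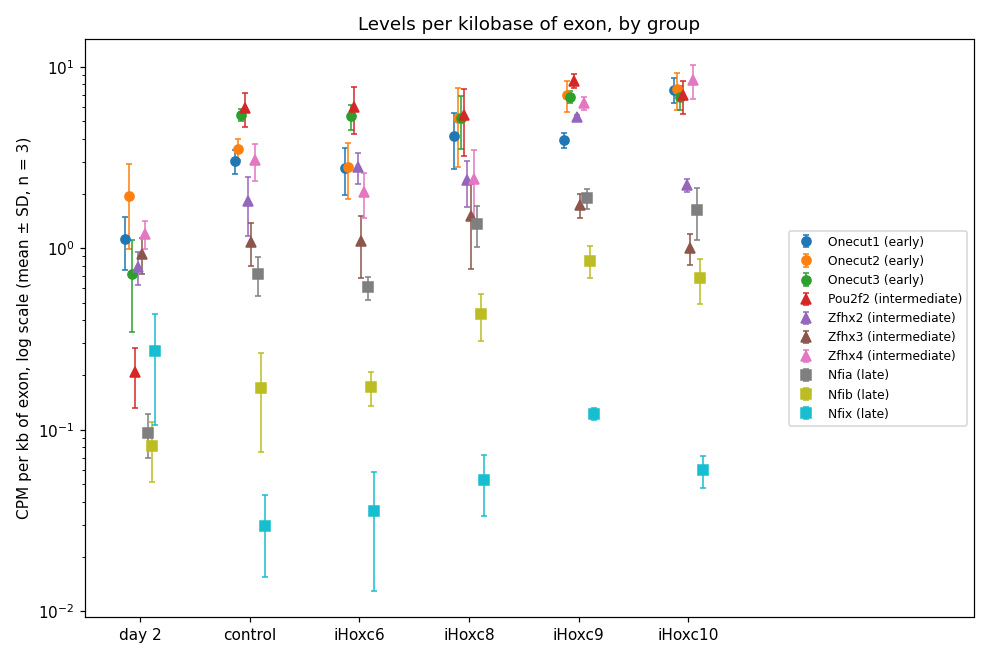
CPM per kb of exon (y axis, log scale) of each factor in each group (x axis), as mean ± SD of 3 libraries, with circles, triangles and squares for early, intermediate and late factors. The squares of Nfia, Nfib and Nfix lie lowest in control, at 0.719, 0.169 and 0.0295, and Nfia and Nfib lie higher in iHoxc9 neurons, at 1.89 and 0.854.

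By class, the early and intermediate sums per kb were higher in control than in day 2 progenitors. The early sum was 3.79 ± 1.67 CPM per kb in day 2 progenitors, 12.0 ± 0.706 in control and 21.7 ± 2.94 in iHoxc10 neurons (SD, n = 3). The intermediate sum was 3.12 ± 0.415, 11.8 ± 2.79 and, highest of the groups, 21.6 ± 1.66 CPM per kb in iHoxc9 neurons. The late sum was a small part of the whole in every library. It took 3.04% to 4.95% of the 3 class sums in control, 2.45% to 5.13% in iHoxc6, 5.61% to 8.24% in iHoxc8, 5.92% to 7.75% in iHoxc9 and 4.42% to 6.73% in iHoxc10 neurons. In day 2 progenitors it took 3.84% to 10.9%, with Nfix the largest of the late factors there. The early sum took 49.8% to 52.5% in iHoxc10 and 40.9% to 42.8% in iHoxc9 neurons, ranges that do not overlap. These shares are descriptions over the 10 members and were not tested.

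Companion genes of the same programs were examined as lists. Of 6 genes listed as companions of late-born neurons, 5 were tested and 4 were higher than control in iHoxc9 neurons by edgeR, against 6.95% of all genes. In each of iHoxc6, iHoxc8 and iHoxc10 neurons 1 was higher. Of all genes, 0.587% and 2.12% passed in either direction in iHoxc6 and iHoxc8, and 6.67% were higher in iHoxc10. In iHoxc9, iHoxc6, iHoxc8 and iHoxc10 the medians of the list were 1.63, 0.12, 0.78 and 0.39 on the log2 scale. Bcl11a, a zinc finger repressor, was the gene that passed in all 4 and went from 5.32 ± 1.79 CPM in control to 13.6 ± 1.77 with Hoxc6, 19.3 ± 1.43 with Hoxc8, 52.5 ± 0.0260 with Hoxc9 and 36.0 ± 4.01 with Hoxc10 (SD, n = 3). Within the line and run shared with control, Bcl11a rose in iHoxc6 neurons (log2 fold change 1.35, SE 0.18, adjusted p = 0.000175, edgeR). Tcf4, a partner of proneural bHLH factors, stood at 32.0 ± 8.09 CPM in control and 70.0 ± 7.67 CPM in iHoxc9 (log2 fold change 1.13, SE 0.24, adjusted p = 0.00175, edgeR), and Neurod1, a proneural factor, at 9.71 ± 0.273 and 29.6 ± 6.58 CPM (log2 fold change 1.60, SE 0.29, adjusted p = 0.000349, edgeR). Bhlhe22 stood at 0.792 ± 0.375 and 2.46 ± 0.575 CPM without passing (log2 fold change 1.62, SE 0.45, adjusted p = 0.0105, edgeR). Neurod2, named after its values were seen, was the fourth gene that passed in iHoxc9 neurons, at 0.197 ± 0.0395 CPM and 0 in every control library. Neurod6 had 0 counts in every library. From day 2 to control the list did not rise as a set, with 1 gene higher, 1 lower and a median log2 fold change of -0.007. On day 2 Neurod1 was at 9.78 ± 4.36 CPM and Tcf4 at 38.9 ± 8.24 CPM, near their control levels.

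Of the remaining paralogs of the member families, Nfic, the fourth nuclear factor I gene, stood at 5.63 ± 2.03 CPM on day 2, 13.7 ± 3.70 in control and 24.9 ± 2.74 in iHoxc10 neurons (SD, n = 3). It passed from day 2 to control (log2 fold change 1.27, SE 0.21, adjusted p = 1.65e-05, edgeR) and in iHoxc10 neurons over control (log2 fold change 0.87, SE 0.20, adjusted p = 0.00259, edgeR). Pou2f1, the broadly expressed relative of Pou2f2, went from 61.8 ± 4.74 to 38.6 ± 10.5 CPM from day 2 to control, without passing (log2 fold change -0.68, SE 0.26, adjusted p = 0.034, edgeR), and Pou2f3 was at 3 counts or fewer in every library.

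Of 10 genes that mark the age of progenitors, 4 were higher and 6 lower in control than on day 2 by edgeR. Lin28a, an RNA-binding protein of young progenitors, went from 331 ± 44.5 to 136 ± 30.1 CPM (log2 fold change -1.29, SE 0.18, adjusted p = 2.69e-06, edgeR) and Nr6a1, an orphan receptor of early embryos, from 231 ± 21.8 to 72.1 ± 11.9 CPM. Sox9, needed for the gliogenic competence of progenitors, went from 4.71 ± 1.64 to 21.1 ± 6.26 CPM, and Fabp7, a radial glia gene, from 5.15 ± 3.48 to 101 ± 40.4 CPM. In iHoxc6 neurons none of the 10 passed against control by edgeR. In iHoxc8 neurons 3 were higher and 1 lower, in iHoxc9 neurons 6 higher and 3 lower, and in iHoxc10 neurons 3 higher and 2 lower. Sox9 reached 67.0 ± 1.33 CPM with Hoxc9 and 55.2 ± 5.54 CPM with Hoxc10, while Lin28a was at 54.0 ± 5.16 and 71.6 ± 18.2 CPM and Fabp7 at 30.1 ± 2.31 and 34.3 ± 6.03 CPM, each of the 6 changes over control past the threshold. Between iHoxc9 and iHoxc10 neurons 2 of the 10 passed, Hmga2 and Tox, named after their values were seen, both higher in iHoxc9.

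For the member with the highest mean CPM of each class, the 3 genes with the closest pattern over the 6 group means were sought among 13192 genes of at least 1 CPM, by the root mean square difference of centred log2(CPM + 1). Onecut2 was followed most closely by Mllt3 (0.104), B3galt1 (0.118) and Pgm2l1 (0.138). For Zfhx4 they were Vav3 (0.123), Adcy2 (0.276) and Rapgef5 (0.287). For Nfia they included Slitrk1 (0.132) and Lrrtm2 (0.148), which encodes a postsynaptic adhesion protein. With a pseudocount of 0.1, 6 of the 9 genes found for these members were found again. These likenesses rest on 6 points that share their libraries and carry no test.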

How the data were processed

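Polyadenylated RNA of 18 libraries was analysed as the authors deposited it, as raw read counts per gene in 1 column per replicate. Per the labels and the paper's methods, the authors aligned reads with STAR 2.7.0c to mm10 and counted them on RefSeq genes with featureCounts, merging genes of 1 Entrez identifier; the strand setting is not given in the sources used here. The labels number the libraries of every group 1 to 3, and the study describes them as independent differentiations.

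The 20944 genes that had a count in at least 1 iHox library were tested in R 4.3.3 with edgeR 4.0.16 (TMM factors, quasi-likelihood test, all 18 libraries fitted together by group) in 10 comparisons. SEs were derived from the F statistic, and 95% intervals from the t distribution of that fit. p-values are two-sided and Benjamini-Hochberg adjusted over all genes tested. Symbols, coordinates and exon lengths came from RefSeq and GENCODE annotations of GRCm38; 25275 of 27179 identifiers matched a symbol. All columns of counts were used.

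The members, companion lists and marker lists were chosen with earlier results of these data known. The text names all 10 members, from each companion list at most the 4 genes of highest mean CPM, and the closest patterns; some genes are not reported here. The fits were tested on simulated data. Replicate pairs differed by more than sampling noise, with a chi-square per degree of freedom of 6.78 to 234. Alternatives were DESeq2 1.42.0, other size factors, other filters, fits of the compared groups only, the replicate block, each library left out and, added after the data were seen, offsets for exon length (a loess of span 0.5) and the paired fit of iHoxc9 and iHoxc10. Of the 10 comparisons, all 3 pairs of equal replicate number had a correlation above 0.1 in iHoxc9 against iHoxc10; in iHoxc10 against day 2 progenitors the 3 were positive, with 1 at 0.0657, and in the other 8 at least 1 was negative. The numbers come from the labels and a shared batch of cultures is not stated.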

Additional observations from a re-analysis of the deposited data

Results flagged for a closer look

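Zfhx2 was singled out because its change over control differed between iHoxc9 and iHoxc10 neurons by a direct test of the 2 groups. Its mean was 95.9 ± 2.96 CPM with Hoxc9 and 40.4 ± 3.12 CPM with Hoxc10 (SD, n = 3), a log2 fold change of 1.25 (SE 0.22, adjusted p = 0.00054, edgeR), and it was higher in 3 of 3 iHoxc9 libraries than in any iHoxc10 library. Of all genes tested, 4.99% passed in this comparison. No flag was set for single libraries far from the rest of a group of 3, although the second iHoxc8 library stood apart as described above.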

How the results depend on the processing

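Of the 49 member tests that passed over the 10 comparisons, 44 passed under every alternative run. With the replicate block in the fit of all libraries, the count of members changed in iHoxc8 against control was 1 instead of 0 (Nfib), control and iHoxc6 against day 2 progenitors gained Nfib, and no other call changed. Outside iHoxc9 against iHoxc10, no comparison had all 3 correlations of equal replicate numbers above 0.1. In iHoxc10 against day 2 progenitors they were 0.398, 0.0657 and 0.232, each library correlating best with its own number, and the block left the members called there as they were. DESeq2's Wald test called 2 members in iHoxc8 against control, where the main fit called 0. In iHoxc9 against iHoxc10 it called 2, where the main fit called 1. Fitting only the groups compared called 3 members in iHoxc9 against iHoxc10, and 7 with the replicate block. With offsets for exon length, 3 members were called in iHoxc9 against control instead of 5, and 0 were past both thresholds instead of 2. Zfhx3 in iHoxc10 against day 2 progenitors turned to -0.72 on the log2 scale. Past both thresholds, iHoxc9 against control had 1 member with no filter on low counts, and iHoxc10 against control had 1, Nfib, with DESeq2, DESeq2 size factors, total counts or the replicate block. The cause of these shifts was not tested. Leaving out 1 library at a time gave 0 to 1 members in iHoxc6, 0 to 2 in iHoxc8 and 3 to 4 in iHoxc9 against control, and past both thresholds 1 to 2 in iHoxc9 and 0 to 1 in iHoxc10. Nfix rests on few counts in every day 4 library.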
